A study of Homo sapiens with 8 samples.

Results

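CTCF peaks that lay between genes and were called in both replicate libraries were examined in the human osteosarcoma line U-2 OS. CTCF is a zinc finger protein that binds a long, directional DNA sequence. It is known to stop the cohesin complex as cohesin extrudes loops of chromatin, and loop anchors often carry pairs of CTCF sites whose sequences point toward each other. Sites between genes are of interest because many of them sit at borders of chromatin domains and separate genes from regulatory elements outside their domain.

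CTCF-bound DNA was recovered by chromatin immunoprecipitation and sequenced (ChIP-seq) from cells crosslinked with 1% formaldehyde for 6 min. Both CTCF libraries, replicates 1 and 2, came from clone C32, in which FLAG-Halo was inserted at the endogenous CTCF gene, and used antibody ab128873. They therefore represent 1 tagged clone, and each had an input library, for which no peak list was analysed here. Sp1 antibody 1, Sp1 antibody 2 and normal rabbit IgG gave 1 list each, from an endogenous V5-Halo-SP1 knock-in line, so target and cell line cannot be told apart between the CTCF lists and the other lists. The series text calls the CTCF cells wild type, whereas the labels name the knock-in clone, and the labels were followed.

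The members were chosen by the measured peak calls and by annotation. A peak of CTCF replicate 1 on chromosomes 1 to 22 or X was taken if it overlapped a replicate 2 peak by at least 1 bp. Its summit had to lie more than 1 kb from every transcript start of GENCODE release 44, in no annotated gene of any class, and more than 500 kb from both chromosome ends. Of 42765 replicate 1 peaks, 34125 were shared with replicate 2 and 33936 of these lay on the chromosomes considered. The rule kept 10848 peaks, 31.97% of the latter (95% Wilson interval 31.5 to 32.5%). Shared peaks in introns numbered 14123, within 1 kb of a transcript start 7046, and in coding exons 472. A further 118 intergenic peaks were left out because they lay within 500 kb of a chromosome end. Of the 10848 intergenic peaks, 10836 had a replicate 2 partner of their own, and 12 shared a replicate 2 peak with another replicate 1 peak.

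At the edge of the rule, a peak on chromosome 3 had its summit 1003 bp from a transcript start and fold enrichments of 53.3 and 19.1 in replicates 1 and 2. A peak on chromosome 13 at 999 bp was not taken, with 7.81 and 4.29. At the other limit, a peak on chromosome 14 lay 504 kb from the chromosome end and was taken, with 15.6 and 11.5. A peak on chromosome 11 at 494 kb was not taken, with 8.55 and 6.59. Because being called in both libraries selected on fold enrichment, the fold values below are descriptions. Intervals on shares are 95% Wilson intervals and cover counting error only, since the lists carry no read depth and peaks of a library are not replicates. No p-value was computed. With 2 CTCF libraries, a difference is set against the spread between them.

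The recognition sequence was learned from the shared peaks that are not intergenic members, and then sought within 50 bp of each intergenic summit. In the resulting matrix of 20 positions, the sixth position was C in 99.97% and the eleventh was G in 99.8% of aligned sites, whereas the first position carried almost no information. The 8 intergenic peaks with the highest fold enrichment are shown first because they represent the strongest binding signal. Each line gives the bases of hg38 up to 50 bp from the centre of the best match, read along the motif strand, with the 20 bases of the match in capitals. The last 2 lines hold no match above the threshold and are in lower case throughout.
Near EIF1, chr17:41662836-41662936, reverse strand: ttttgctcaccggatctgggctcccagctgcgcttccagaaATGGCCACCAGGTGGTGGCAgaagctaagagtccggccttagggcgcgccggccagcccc
Near ADCYAP1, chr18:864922-865022, forward strand: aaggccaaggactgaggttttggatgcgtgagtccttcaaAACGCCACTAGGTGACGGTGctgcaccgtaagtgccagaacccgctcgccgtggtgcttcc
Near GCM1, chr6:53171975-53172075, forward strand: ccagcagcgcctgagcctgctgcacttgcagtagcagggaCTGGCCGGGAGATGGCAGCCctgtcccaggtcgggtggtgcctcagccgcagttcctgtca
Near FOXC2, chr16:86563891-86563991, forward strand: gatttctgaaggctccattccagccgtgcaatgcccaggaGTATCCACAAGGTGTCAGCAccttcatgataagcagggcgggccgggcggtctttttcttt
Near CAMK4, chr5:111158259-111158359, forward strand: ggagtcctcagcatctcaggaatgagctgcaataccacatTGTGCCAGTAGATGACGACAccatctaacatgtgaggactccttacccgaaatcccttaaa
Near ANKRD60, chr20:58209989-58210089, reverse strand: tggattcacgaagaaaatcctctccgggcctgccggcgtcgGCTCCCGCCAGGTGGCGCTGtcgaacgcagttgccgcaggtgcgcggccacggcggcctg
Near RPE65, chr1:68342885-68342985, reverse strand: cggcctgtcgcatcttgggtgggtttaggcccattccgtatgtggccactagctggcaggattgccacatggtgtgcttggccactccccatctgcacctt
Near NT5M, chr17:17356194-17356294, forward strand: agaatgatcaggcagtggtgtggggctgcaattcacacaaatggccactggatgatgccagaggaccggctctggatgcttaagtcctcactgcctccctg

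The strongest intergenic peak, chr17:41662350-41663289, had a fold enrichment of 448 in replicate 1 and 196 in replicate 2. It lay 26.0 kb from the start of EIF1, which encodes a translation initiation factor. The peak chr18:864560-865329, 39.9 kb from ADCYAP1, the gene of the neuropeptide PACAP, reached 393 and 203. The peak chr6:53171597-53172611, 23.2 kb from the trophoblast transcription factor gene GCM1, reached 309 and 209. These peaks were several times above the median intergenic peak in each library. FOXC2, a forkhead transcription factor gene, had the peak chr16:86563431-86564511 only 2.86 kb from its start, at 294 and 207. The peak chr5:111157928-111158708, 65.3 kb from the calmodulin-dependent kinase gene CAMK4, had 333 and 171. The peak chr20:58209353-58210677, 18.6 kb from ANKRD60, had 340 and 151. In 7 of these 8 peaks the replicate summits were at most 4 bp apart, and in the peak near EIF1 they were 9 bp apart.

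The other 2 of the 8 strongest peaks had no match within 50 bp of the summit above the motif threshold of 10.5 (log2 odds), although each held 1 motif elsewhere in its interval. The peak chr1:68342547-68343338, 107 kb from RPE65, the retinoid isomerase gene of the visual cycle, had fold enrichments of 292 and 162 and a best match near the summit scoring 9.86. The peak chr17:17354311-17356729 had 293 and 160 and a best match near the summit of 9.22. It lay 52.9 kb from the gene start of NT5M, which encodes a mitochondrial nucleotidase, but only 11.0 kb from the nearest NT5M transcript start. Both of these matches fell short of the threshold by less than 2 units. The other 4 of the 6 strongest peaks without a motif at the summit, picked after their values were seen, scored between 0.0780 and 9.45 and held 0 motifs in their intervals. They lay near NSD1, TMEM270, SLC9A2 and FOXD2, and the one near FOXD2, chr1:47436129-47437109, combined fold enrichments of 278 and 98.1 with the lowest score of the 4.

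Across all 10848 intergenic peaks the median fold enrichment was 46.3 in replicate 1 and 24.3 in replicate 2, or 35.3 ± 15.5 (SD, n = 2 libraries). The interquartile range was 19.1 to 88.7 in replicate 1 and 10.2 to 46.2 in replicate 2, and the whole range 1.18 to 448 and 1.38 to 209. Shared intronic peaks had medians of 39.4 and 20.9, promoter peaks 41.0 and 20.1, and coding-exon peaks 30.4 and 14.2. Intergenic peaks were therefore higher than intronic peaks by 0.23 in replicate 1 and 0.22 in replicate 2 on the log2 scale, a mean difference of 0.22 ± 0.01 (SD, n = 2). The difference from promoter peaks was 0.18 and 0.27, and from coding-exon peaks 0.61 and 0.78. Each difference in medians had the same sign in both libraries and exceeded the spread between them. Higher in the distribution the order of intergenic and promoter peaks turned. The upper quartile in replicate 1 was 93.2 for promoter peaks, against 88.7 for intergenic peaks, although in replicate 2 it was 45.9 against 46.2. The lower limit of the highest decile was 146 for promoter peaks and 134 for intergenic peaks in replicate 1, and 74.2 and 71.0 in replicate 2. Intergenic peaks were a median of 699 bp wide in replicate 1 and 526 bp in replicate 2.

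**Figure D1:**
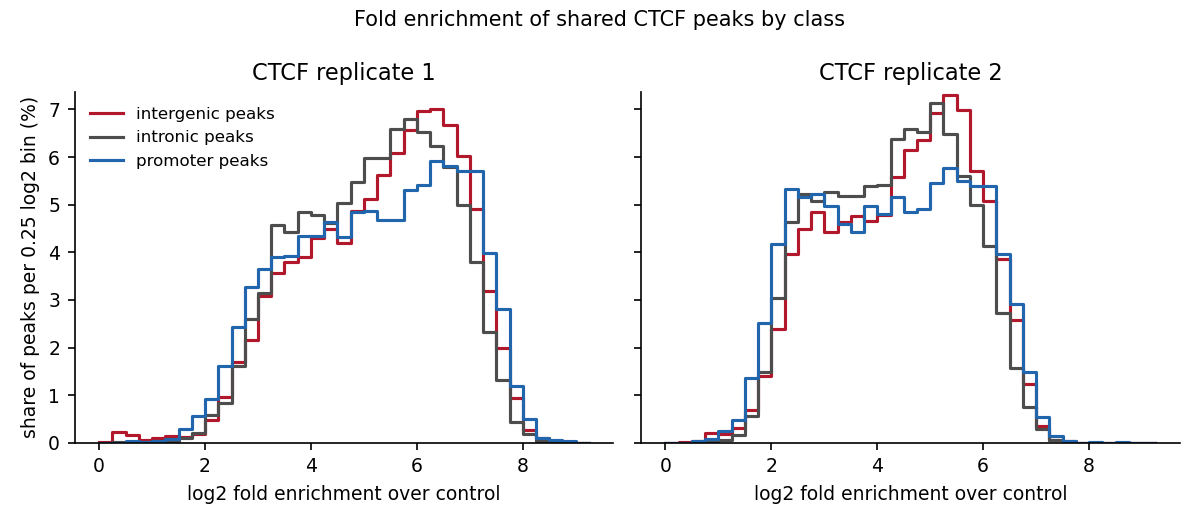
Share of shared CTCF peaks (%) in bins of log2 fold enrichment over the control, for intergenic, intronic and promoter peaks in each replicate, with each line a class. In replicate 1 the intergenic median of 46.3 lies to the right of the intronic median of 39.4, and a small group of intergenic peaks sits near a log2 fold of 0.

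The replicates ranked the intergenic peaks alike. Spearman's rho of fold enrichment was 0.953 and Pearson's r of log2 fold enrichment was 0.950 over the 10848 peaks, which are not independent, and intronic peaks gave a rho of 0.951. The median distance between summits was 8 bp, and 99.6% of pairs were at most 100 bp apart. Replicate 2 was lower, with a median log2 ratio to replicate 1 of -0.88. Among intergenic peaks 406, or 3.74% (3.40 to 4.12%), were more than 2-fold from the median ratio of all shared peaks, against 3.85% of all shared peaks. Of these, 229 were relatively higher in replicate 2 and 177 lower. Replicate 2 exceeded replicate 1 outright at 336 peaks, 205 of which had a fold enrichment under 10 in both libraries.

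The 3 highest and 3 lowest ratios of replicate 2 to replicate 1 came from different kinds of peak. The peak chr15:20022301-20022737 had 11.0 in replicate 1 and 67.6 in replicate 2, but the summit of the overlapping replicate 2 peak was 937 bp away. The peak chr2:89237071-89237437, 2.34 kb from the immunoglobulin kappa pseudogene IGKV2-29, had 6.73 and 16.5 with summits 706 bp apart. For both, the paired values describe different summits. The third of the high ratios, at chr1:123550685-123550905, came from low values of 2.10 and 4.87 with summits 57 bp apart, and this peak held 0 motifs. In the other direction, chr10:58291454-58291975, 22.6 kb from the iron-sulfur protein gene CISD1, had 24.3 and 3.34 with summits 13 bp apart. The peak chr1:38817872-38818741, 41.4 kb from RRAGC, a gene of the amino acid sensing Rag GTPases, had 72.9 and 12.2 with summits 17 bp apart. The peak chr9:65769123-65770008 had 68.6 and 11.8 with summits 15 bp apart. These last 3 peaks were well above the weakest calls in replicate 1.

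A CTCF motif lay within 50 bp of the summit in 8903 of 10848 intergenic peaks (82.1%, 81.3 to 82.8%), against 79.1% of all 33936 shared peaks. Windows of the same length placed 1 kb to either side of the intergenic summits held a motif in 1.11% of 21696 cases. The threshold had been set to be passed by 1% of such windows around the other shared peaks, so a share near 1% was largely fixed in advance. Of 35116 RefSeq promoter windows, 2.00% held a motif at the start site. The share in intronic peaks was 82.8%, and the difference of -0.77 percentage points (95% Newcombe interval -1.73 to 0.18) did not exclude 0. Promoter peaks held a motif less often, in 66.5%, a difference of 15.6 points (14.3 to 16.9). Coding-exon peaks had 78.8%, and the interval of their difference, -0.27 to 7.23 points, included 0. Motifs fell on the forward strand in 50.5% of cases (49.5 to 51.5%). The peak interval as a whole held 1 motif in 8123 intergenic peaks, 2 in 830, 3 in 84 and 4 or more in 27, whereas 1784 held none.

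Motif content and fold enrichment rose together. In the lowest decile of replicate 1 fold enrichment 55.4% (52.5 to 58.3%) of intergenic peaks held a motif, 85.0% in decile 5 and 92.9% (91.2 to 94.3%) in the highest. Replicate 2 gave 55.8% and 93.2% in its lowest and highest deciles. Between the motif score and fold enrichment, Spearman's rho was 0.40 in each replicate over the 10848 peaks, and 0.31 in replicate 1 among the peaks with a motif. The quartile of peaks with the lowest score had a median fold enrichment of 21.99 in replicate 1, and the quartile with the highest score 77.5. The corresponding medians in replicate 2 were 11.8 and 40.5. The ranges still overlapped broadly, since the interquartile range of the highest-scoring peaks was 44.3 to 118 and that of the lowest-scoring 10.8 to 55.4.

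The summit did not lie centrally on the motif. Read along the motif strand, the replicate 1 summit was on the 5′ side of the motif centre in 6311 of 8903 intergenic peaks (70.9%, 69.9 to 71.8%), at a median of 10.5 bp. Forward-strand motifs gave 71.8% and reverse-strand motifs 70.0%, so the displacement turned with the motif and did not follow the chromosome. With the replicate 2 summit, which played no part in placing the window, the share was 68.6% (67.7 to 69.6%) of 8882 peaks. Intronic and promoter peaks gave 70.2% and 72.4% in replicate 1. The motif centre was within 20 bp of the summit in 86.6% of intergenic peaks with a motif.

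**Figure D2:**
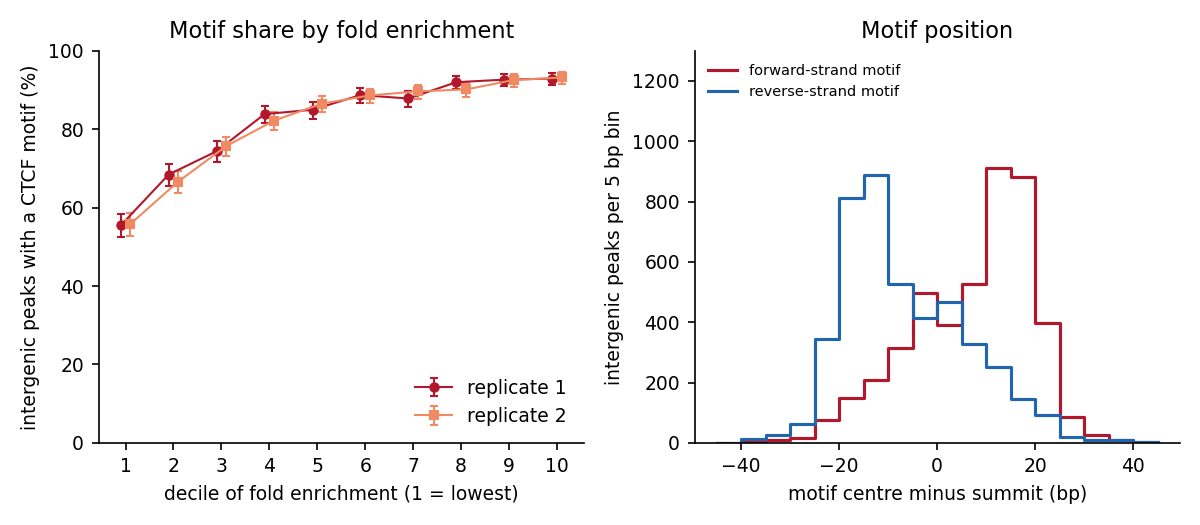
Left, share of intergenic peaks with a CTCF motif (%) by decile of fold enrichment in each replicate, with 95% Wilson intervals. Right, number of intergenic peaks per 5 bp bin of the distance from the replicate 1 summit to the motif centre, for motifs on each strand. The share climbs from 55.4% to 92.9% in replicate 1, and the distributions for the 2 strands are near mirror images.

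The 12 bases at the heart of the motif varied widely, with 1394 different sequences among the 8903 motifs, 597 of them seen once. The 6 most frequent are printed because they show where the common forms differ.
Core 1: CCACCAGAGGGC
Core 2: CCAGCAGAGGGC
Core 3: CCACCAGGGGGC
Core 4: CCACTAGAGGGC
Core 5: CCACCAGGTGGC
Core 6: CCACTAGATGGC
Core 1 occurred in 250 intergenic peaks, with median fold enrichments of 83.6 in replicate 1 and 43.6 in replicate 2. Core 3, in 198 peaks, had the highest medians of the 6, 92.0 and 48.3. Core 6, in 171 peaks, had the lowest, 58.8 and 31.3. The other 3 were found in 178 to 199 peaks and had replicate 1 medians between 77.0 and 88.3. Even the most frequent form made up only 2.81% of intergenic motifs, beside 2.44% of the motifs in other shared peaks. A CpG dinucleotide, the site of DNA methylation, spanned the last of these bases and the base after it in 2309 intergenic peaks (25.9%, 25.0 to 26.9%). The share was 21.5% in intronic and 45.8% in promoter peaks. Intergenic peaks with this CpG had median fold enrichments of 81.0 and 40.7, against 46.3 and 24.5 without. Their median motif scores were closer, at 16.5 and 15.9. Methylation was not measured in these libraries.

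Some motif sequences recurred as exact copies. Of the 8903 intergenic motifs, 782 (8.78%) had a 20-base sequence found in another intergenic peak, and 184 intergenic peaks (1.70%) shared the bases up to 50 bp from the centre of the best match with another. Repeat annotation was not analysed here. The 6 most frequent sequences, chosen after their values were seen, are printed to compare the shares of their copies that lay in peaks. They were ranked by the number of intergenic peaks that held them. A sequence with few genome copies could therefore rank only if many of its copies lay in peaks, and high shares are partly set by this choice. Exact matches were counted on both strands of chromosomes 1 to 22 and X of hg38, and a copy counted as in a peak where its centre lay in one.
Family 1: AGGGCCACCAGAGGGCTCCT
Family 2: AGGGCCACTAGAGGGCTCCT
Family 3: AAGGCCACAAGATGTCAGAA
Family 4: CCTGCCTCTAGATGGCAAAC
Family 5: ATATCCACAAGGTGGCAGTA
Family 6: CCTCCCTCCAGGGGGCGCCA

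Family 1 occurred in 45 intergenic peaks on 16 chromosomes and 104 other shared peaks. Of its 167 copies in the genome, 151 (90.4%) lay in a peak of both replicates. Its intergenic peaks ranged from 8.33 to 145 in replicate 1, with a median of 64.4, and from 6.08 to 52.8 in replicate 2. Family 2 differs from it by 1 substitution, C9T (the base of family 1 first, positions counted from 1 at the 5′ end of the motif), and all of its 41 genome copies lay in a peak of both replicates, with intergenic medians of 96.9 and 45.1. Up to 50 bp around the motif, the median identity to the most common base at each position was 95.05% in family 1 and 87.6% in family 2. In families 3 to 6 it was at least 99.01%.

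Family 3 stood apart. Its sequence occurred 2798 times in hg38, all between genes, but only 29 copies (1.04%) lay in a peak of both replicates and 2729 lay in a peak of neither. The 17 intergenic peaks that carried it as their best match were all on chromosome 1, with fold enrichments from 2.24 to 4.47 in replicate 1 and from 2.04 to 5.09 in replicate 2. These values overlapped no value of families 1, 2, 4, 5 or 6. Families 4 and 5 had medians of 60.2 and 37.9 in replicate 1 on 5 chromosomes each. Family 6, with 12 of its 13 intergenic peaks on chromosome 19, had medians of 110 and 61.8, and all of its 27 copies lay in a peak of both replicates. The study's methods name no filter on mapping quality, and reads from near-identical copies cannot be assigned to one of them. Values of single copies in families 3 to 6 are therefore uncertain, although not all copies were near-identical. The lowest identity was 75.2% in family 4 and 41.6% in family 6.

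**Figure D3:**
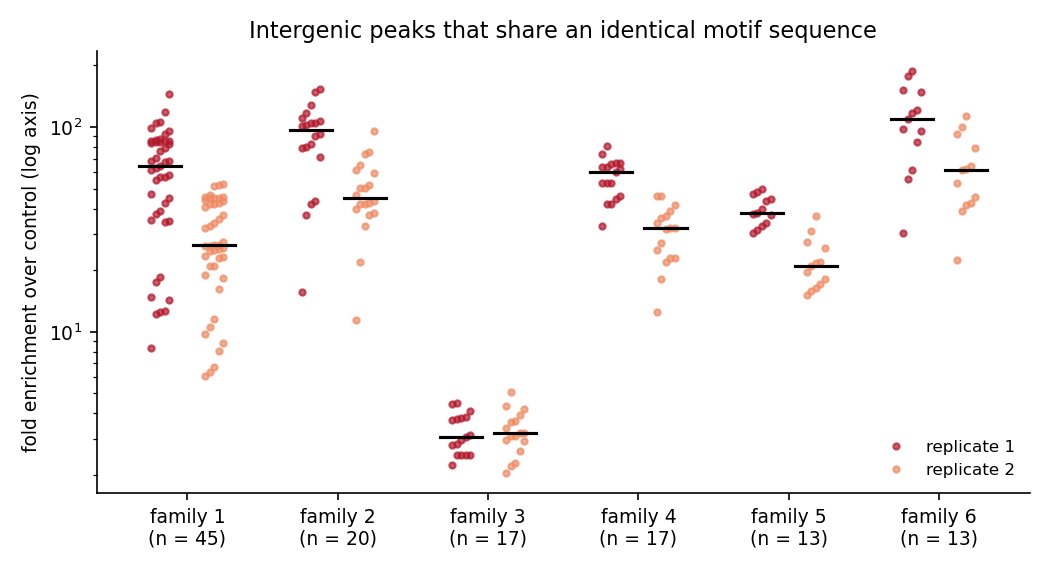
Fold enrichment over the control (log axis) of each intergenic peak in the 6 families that share an identical 20-base motif, in both replicates, with black bars at the medians. Family 3 lies between 2.04 and 5.09 in both replicates, below every peak of the other families.

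A pair of groups of intergenic peaks had mostly low values. The first lay more than 500 kb from any transcript start and comprised 54 peaks, 44 of them on chromosome 1 between summits at 122525007 and 124763731, in sequence that hg38 fills with models of the centromere. Their fold enrichments ran from 1.59 to 8.16 in replicate 1 and from 1.77 to 5.09 in replicate 2, and 19 of the 44 held a motif, which was that of family 3 in 16. The CENP-B box, the recognition sequence of centromere protein B in alpha satellite DNA, was searched for on either strand up to 100 bp from the summit. It occurred in 26 of the 54 distant peaks (48.1%, 35.4 to 61.1%) and in 1 of the other 10794. The farthest peak with a motif is shown with the family 3 sequence in capitals.
Farthest peak with a motif, chr1:124743198-124743298, reverse strand: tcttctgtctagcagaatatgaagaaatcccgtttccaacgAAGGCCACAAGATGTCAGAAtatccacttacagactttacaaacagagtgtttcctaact
It lay 3163 kb from the nearest annotated start, that of the long noncoding RNA LINC01691, with fold enrichments of 4.10 and 5.09. The peak farthest of all, chr1:124763598-124763823 at 3183 kb, had 2.66 and 3.31, and the third, chr1:124727325-124727550 at 3147 kb, had 1.85 and 3.05. Neither held a motif within 50 bp of its summit.

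The second group was overlapped by the IgG control, whose whole list held 106 peaks. It held 32 intergenic peaks (0.295%, 0.209 to 0.416%), beside 0.109% of all shared peaks, 1 intronic peak and 2 promoter peaks. The difference from intronic peaks was 0.29 percentage points (0.20 to 0.41). All 32 were also overlapped by both Sp1 antibodies, and 0 of 32 held a motif at the summit. The Wilson interval of that share reaches 10.7%, and the limit of 3 counts that a count of 0 allows is 9.38%. In 31 of them the fold enrichment was at most 1.83 in CTCF replicate 1 and 2.42 in replicate 2, against 1.14 to 2.47 for IgG at the same places. The exception, on chromosome 12, had 15.6 and 6.45 for CTCF and 4.43 for IgG. The largest cluster, 19 peaks, lay on chromosome 4 between summits at 49092068 and 49638099. At least 5 copies of ATTCC on a strand were present within 50 bp of the summit in 30 of the 32 peaks (93.8%, 79.9 to 98.3%), with a median of 13 copies. The same was true of 11 of the 10816 other intergenic peaks (0.102%). It was also true of 0.350% of windows 1 kb downstream of all 10848 intergenic peaks, those overlapped by IgG included. A peak of the same cluster without an IgG call, among the 3 weakest of all, shows the repeat.
Weakest peak on chromosome 4, chr4:49147317-49147417, forward strand: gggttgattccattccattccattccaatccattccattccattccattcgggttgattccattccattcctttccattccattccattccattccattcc
It had fold enrichments of 1.18 and 1.64. The other 2 of the 3 weakest peaks were chr10:38579020-38579575, with 1.36 and 1.38, and chr4:49136783-49137172, with 1.35 and 1.51 beside 1.42 for IgG. Without the peaks overlapped by IgG or more than 500 kb from a transcript start, 10766 peaks remained, with a motif share of 82.5% and medians of 46.9 and 24.7.

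Sp1 is a zinc finger factor that binds GC-rich promoter sequence, and its peaks overlapped a small share of intergenic CTCF peaks. The lists of antibodies 1 and 2 held 8706 and 5973 peaks, against 42765 and 36082 for CTCF, and their size limits these shares. Antibody 1 overlapped 181 intergenic peaks (1.67%), antibody 2 overlapped 132 (1.22%) and both overlapped 85 (0.784%, 0.634 to 0.968%), beside 2.65% of all shared CTCF peaks. The share for both antibodies was 0.340% in intronic and 10.6% in promoter peaks. The intergenic share differed from that of promoter peaks by -9.80 points (-10.6 to -9.08) and from that of intronic peaks by 0.44 points (0.26 to 0.65). The difference from intronic peaks was smaller once peaks overlapped by IgG or more than 500 kb from a transcript start were left out, when the intergenic share was 0.474% (0.361 to 0.622%) and its interval overlapped that of intronic peaks, 0.256 to 0.450%. When the Sp1 summits had to lie within 100 bp of the CTCF summit, the intergenic share was 0.341% (0.248 to 0.470%). After the 32 peaks with IgG were set aside, 53 remained. Their median CTCF fold enrichments were 86.2 and 45.3, and 33 of 53 held a motif (62.3%, 48.8 to 74.1%). With 1 library per antibody and IgG, these shares have no replicate check.

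The highest Sp1 values at intergenic CTCF peaks were at chr15:99927951-99928875, 195 kb from LYSMD4, with 64.4 for antibody 1 and 8.81 for antibody 2, beside CTCF values of 149 and 51.0. At chr12:121839200-121839730, 24.1 kb from HPD, which encodes an enzyme of tyrosine breakdown, Sp1 had 23.4 and 13.0 and CTCF only 13.9 and 8.40, without a motif. At chr19:35931433-35932320, 3.56 kb from the synaptic adhesion gene LRFN3, Sp1 had 34.5 and 8.11 and CTCF 106 and 45.2, also without a motif. The antibodies differed by several-fold at the peaks near LYSMD4 and LRFN3. The window with the CTCF match near LYSMD4 is shown for its GC-rich context.
Near LYSMD4, chr15:99928441-99928541, forward strand: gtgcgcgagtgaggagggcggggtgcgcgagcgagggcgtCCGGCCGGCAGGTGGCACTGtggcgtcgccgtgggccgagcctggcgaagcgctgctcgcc

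A cluster of motifs marked 3 intergenic peaks beside immunoglobulin variable-region pseudogenes. The peak chr14:105999201-106001686, 1.96 kb from IGHVIII-2-1 in the immunoglobulin heavy chain locus, held 45 motifs in 2486 bp, with fold enrichments of 69.3 and 36.1. The peaks chr15:22172888-22174629 and chr15:21730304-21732140 on chromosome 15, which carries displaced heavy chain segments, held 30 motifs each. They had 40.7 and 25.6, and 43.7 and 19.5. None of the 3 exceeded the upper quartile of intergenic peaks in replicate 1, 88.7. The best match of the chromosome 14 peak and its surroundings show the tandem array.
Beside IGHVIII-2-1, chr14:105999816-105999916, reverse strand: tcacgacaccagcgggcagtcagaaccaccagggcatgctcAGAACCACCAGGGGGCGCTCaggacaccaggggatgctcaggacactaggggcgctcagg

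The direction of the motif allowed neighbouring sites to be compared. Each intergenic peak was paired with the next shared CTCF peak of any class on the chromosome, and 7069 pairs had a motif in both. A pair was convergent when the motifs pointed at each other, divergent when they pointed away and tandem when both pointed the same way. If strands were independent, convergent and divergent pairs would be equally common and tandem pairs as common as both together. In all, 22.8% (21.9 to 23.8%) were convergent, 25.5% (24.5 to 26.5%) divergent and 51.7% (50.6 to 52.9%) tandem. The shares changed with distance. Convergent pairs made up 15.3% (12.8 to 18.3%) of 659 pairs under 5 kb apart, 18.4% (16.6 to 20.4%) from 20 to 50 kb, 25.1% (22.8 to 27.4%) from 50 to 100 kb and 35.1% (32.1 to 38.3%) of 911 pairs over 200 kb apart. Divergent pairs went the other way, from 31.5% (29.2 to 33.8%) at 5 to 20 kb to 15.3% (13.1 to 17.7%) over 200 kb. Between the shortest and longest distances the convergent share differed by 19.8 points (15.6 to 23.9) and the divergent share by -11.6 points (-15.7 to -7.52). Tandem pairs were most common under 5 kb, at 57.8% (54.0 to 61.5%).

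Pairs that began at an intronic peak followed a similar course, from 15.2% convergent under 5 kb to 40.4% (37.5 to 43.4%) over 200 kb. Over 200 kb the intergenic share was lower, at 35.1% (32.1 to 38.3%), and its interval overlapped the intronic one only narrowly. Intervals overlapped at every distance, which does not exclude a difference between the classes, and that difference was not tested. When only intergenic peaks were linked to the next intergenic peak, skipping others between, the convergent share over 200 kb was lower, at 29.9% (28.2 to 31.7%) of 2701 pairs.

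**Figure D4:**
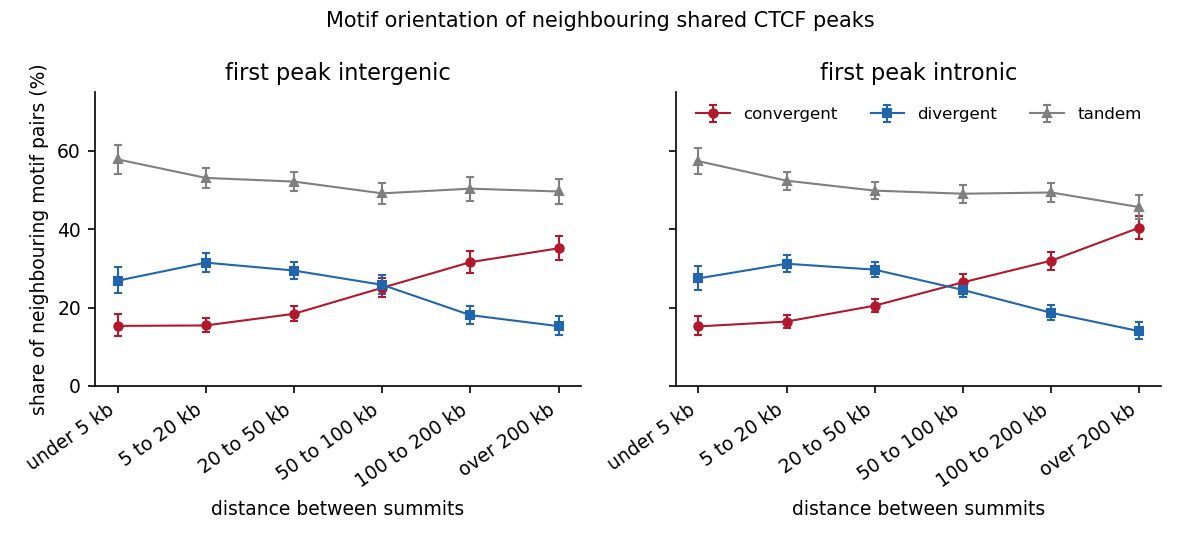
Share (%) of convergent, divergent and tandem motif pairs among neighbouring shared CTCF peaks, by distance between summits, for pairs that start at an intergenic peak (left) and at an intronic peak (right), with 95% Wilson intervals. At 50 to 100 kb convergent and divergent shares are close, at 25.1% and 25.8% on the left and 26.5% and 24.5% on the right. Beyond 100 kb convergent pairs exceed divergent pairs in both panels, and over 200 kb they reach 35.1% and 40.4%.

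The next shared CTCF peak of any class lay a median of 43.8 kb from an intergenic one (42.0 to 45.4 kb), with an interquartile range of 14.5 to 113 kb. It was within 5 kb for 1082 peaks (9.97%) and more than 200 kb away for 1426 (13.1%). Over intergenic sequence outside assembly gaps the density was 9.82 peaks per Mb (exact Poisson interval 9.63 to 10.0). Chromosome 19 was the densest, with 22.1 per Mb (19.9 to 24.5), and had the highest median fold enrichments, 71.6 and 36.5. Chromosomes 22 and 17 followed with 17.5 and 16.8 per Mb. The lowest densities were 6.01 per Mb (5.33 to 6.75) on chromosome 13 and 6.17 (5.65 to 6.73) on X. X also had the lowest medians, 29.2 and 15.4. Its motif share was 84.2% of 506 peaks, close to the 82.1% of all intergenic peaks. Median GC content within 250 bp of the summit was 45.5% in intergenic, 44.3% in intronic and 57.7% in promoter peaks.

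**Figure D5:**
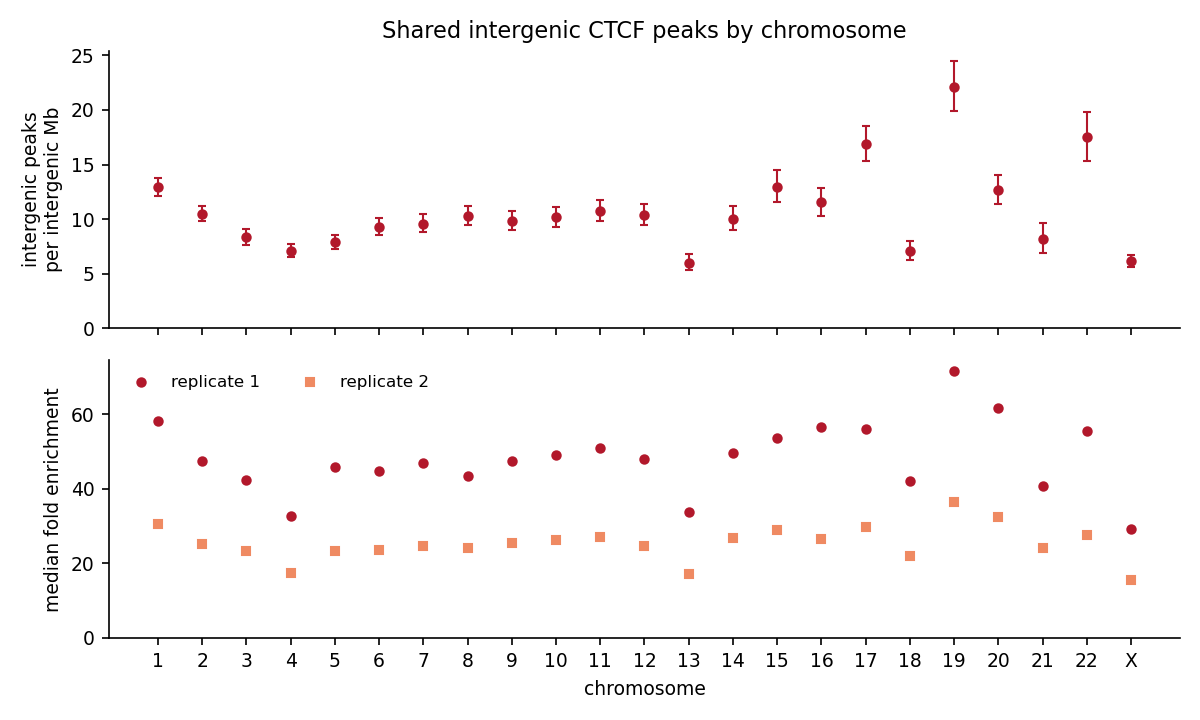
Density of shared intergenic CTCF peaks per Mb of intergenic sequence (top, exact Poisson intervals) and their median fold enrichment in each replicate (bottom), by chromosome. Chromosome 19 is highest in both, at 22.1 per Mb and medians of 71.6 and 36.5, and X is lowest in fold enrichment.

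The position of intergenic peaks relative to annotated transcripts was described without a background of other intergenic positions. The median distance to a transcript start of any class was 13.5 kb, with an interquartile range of 5.68 to 33.1 kb, and 657 peaks (6.06%) lay over 100 kb away. The nearest start belonged to a protein-coding gene in 3989 cases (36.8%) and to a long noncoding RNA in 2923 (26.9%). The same values were not computed for intergenic sequence at large, so they are not shown to be traits of the peaks. Fold enrichment was lower farther out. The quintile of peaks nearest to a start had medians of 55.0 and 28.2, and the farthest quintile, beyond 41.2 kb, had 31.6 and 16.8. The motif share varied less, between 78.3% in the farthest quintile and 83.8% in the second nearest.

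A small part of the intergenic peaks had as nearest protein-coding gene 1 of the 5 genes with the highest counts, which border centromeres. RPIA, a gene of the pentose phosphate pathway, was nearest to 46 peaks, which had a median of 35.3 in replicate 1 and a motif in 32. Their summits ran from 88874247 to 91571872 on chromosome 2, and genes not typed as protein-coding could lie closer. The peak 2.34 kb from the immunoglobulin pseudogene IGKV2-29 was 546 kb from RPIA. FAM72B was nearest to 45 peaks, among them those of the chromosome 1 centromere, with a median of 2.80 and a motif in 20. CWH43, which acts in lipid anchoring of proteins, was nearest to 29 peaks with a median of 1.43 and a motif in 2, and 19 of them were overlapped by IgG. TPTE and the potassium channel gene KCNJ18 were nearest to 29 and 26 peaks, with medians of 28.4 and 26.6.

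Gene deserts beside developmental genes held scattered peaks. Between KCNJ2, a potassium channel gene, and SOX9, the master factor of cartilage, 1941 kb apart, there were 13 intergenic peaks, 12 with a motif. The strongest, chr17:71472927-71473736, lay 648 kb from SOX9 and had fold enrichments of 105 and 69.1. Between EPHA4, an ephrin receptor gene, and the neural crest factor gene PAX3 there were 5, 2 with a motif. The strongest of these, chr2:221968938-221969858, had 69.7 and 39.1 without a motif. BMP2 and HAO1 had 6 intergenic peaks between them, with a strongest value of 112 in replicate 1, and TBX5 and TBX3 had 6 with 113. IRX2 and IRX1 had 2 intergenic peaks between them, neither with a motif and the stronger at 35.8. MSX2 and DRD1 had 2, both with a motif and the stronger at 178. Between the beta-globin gene HBB and OR51V1, 24.8 kb apart, there were 0 intergenic peaks. Shared CTCF peaks inside annotated genes or within 1 kb of a transcript start were not counted, so these are not all CTCF peaks of the intervals. The strongest peaks of the SOX9, BMP2 and TBX3 intervals are shown as the motifs of these deserts.
Between KCNJ2 and SOX9, chr17:71473339-71473439, forward strand: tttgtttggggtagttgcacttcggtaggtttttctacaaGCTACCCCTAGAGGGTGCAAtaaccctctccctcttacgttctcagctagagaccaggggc
Between BMP2 and HAO1, chr20:7286063-7286163, reverse strand: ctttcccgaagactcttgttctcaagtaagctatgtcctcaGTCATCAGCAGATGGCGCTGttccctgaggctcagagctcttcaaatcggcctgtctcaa
Between TBX5 and TBX3, chr12:114662731-114662831, forward strand: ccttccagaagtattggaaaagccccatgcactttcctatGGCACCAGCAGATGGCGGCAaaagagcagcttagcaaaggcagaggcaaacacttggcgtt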

How the data were processed

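Peak lists of 5 of the 8 libraries were analysed, namely 2 CTCF replicates, 2 Sp1 antibodies and IgG, with groups taken from the sample labels. Adapters were removed, the reads were placed on hg38, duplicates were discarded and the authors called peaks per library. The submitters' processing notes name cutadapt 2.6, Bowtie2 2.4.5, SAMtools 1.15.1 and MACS2 2.2.7.1 for these steps, whereas the study's methods give other versions of Bowtie2 and SAMtools and another name for the peak caller, and which were used for the deposited lists was not settled. The deposited fold enrichment is a linear ratio to the control as written by the authors' caller. Deposited values of −log10 p and −log10 q belong to the summit, and the lowest −log10 q was between 1.30 and 1.43. The deposited score was not used. The lists hold no read counts, so depth is unknown.

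Peaks were assigned by summit to GENCODE release 44. The weight matrix of 20 columns was started from a degenerate core of 12 bases with up to 2 mismatches, refined in 5 rounds on the 23088 shared peaks that are not members, and given the threshold passed by 1% of windows centred 1 kb away. Functions were tested on simulated sequences and intervals. Python 3.11.15, numpy 2.4.6, pandas 2.3.3, scipy 1.17.1 and pysam 0.24.0 were used. Wilson and Newcombe intervals served shares and exact Poisson intervals densities. The 12-base motif sequences in the report are the middle of the match.

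Peaks described were the 8 strongest and 3 weakest, the 3 with the highest and lowest ratio of replicates, the 3 farthest from a start, the 3 with most motifs, the 3 with the highest Sp1 value, the strongest between each of the gene pairs named, and the edges of the rule, with the 5 genes nearest to the greatest numbers of peaks. A further interval in this rule is not reported here. The members and all lists were chosen with earlier results of these data known. Alternatives changed the definition of a shared peak, thresholds, annotation, chromosomes, replicates, motif and window.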

Additional observations from a re-analysis of the deposited data

How the results depend on the processing

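In all, 106 values were recomputed under alternatives, and 86 of them stayed within the interval of the value reported, for fold enrichment within 1 SD between replicates, or for the number of peaks within the wide limits of 7232 and 16272. The number of peaks, 10848 as reported, was 15951 when only protein-coding genes defined genes and starts, and 8475 with a 5 kb limit to transcript starts. The motif share depended most on the definition of a motif. A threshold passed by 0.1% of flanking windows gave 51.3%, the 12-base core 19.9% with no mismatch and 59.5% with 1 mismatch. When only 1 CTCF list was used, the number of peaks was 11841 to 13109, the motif share 75.9 to 76.6% and the median spacing 35.2 to 40.3 kb. The IgG share was then 0.244 to 0.422% and the convergent share under 20 kb 15.3 to 16.996%. The last is 15.4% over both lists. Median fold enrichment was 33.4 in the replicate 1 list alone, against 46.3 over its shared peaks. In the replicate 2 list alone it was 21.5, against 24.3. In the count of values, both were set against the replicate 1 interval. A 5 kb limit to transcript starts moved the median spacing to 49.1 kb, the distance to a start to 19.6 kb and the GC content to 44.9%. A reciprocal overlap of 50% gave a spacing of 47.5 kb. With protein-coding genes only, the distance was 40.8 kb, the IgG share 0.207% and the share with both Sp1 antibodies 1.12%. The latter fell to 0.341% when summits had to lie within 100 bp. In an alternative chosen after seeing the data, leaving out peaks overlapped by IgG or more than 500 kb from a transcript start gave 0.474% for both Sp1 antibodies and by construction 0% for IgG. The cause of the other changes was not tested. Differences between classes of peaks were taken within each library, as the report gives them. No paired analysis was possible because no other group with an analysed peak list shares the replicate numbers of the CTCF libraries, and input peak lists were not analysed here. The lists carry no depth, so weak calls cannot be judged by their reads.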

Other observations

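Intergenic motifs pointed toward the nearest protein-coding transcript start in 414 of 762 cases at 1 to 5 kb (54.3%, 95% Wilson interval 50.8 to 57.8%), in 50.6% at 5 to 20 kb, in 45.3% (43.6 to 47.0%) at 20 to 100 kb and in 1202 of 2719 beyond 100 kb (44.2%, 42.4 to 46.1%). The interval of the nearest class overlapped neither of the intervals beyond 20 kb. No test of the difference was run.

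The protein-coding genes on either side of an intergenic peak pointed away from each other in 2861 cases (26.4%), the same way in 5634 (51.9%) and toward each other in 2278 (21.0%). These shares lay close to those of the sequence length between protein-coding genes, of which 25.5% was between genes pointing apart, 52.2% between genes pointing the same way and 22.3% between genes pointing toward each other. Median fold enrichments in these arrangements were 46.7, 46.6 and 45.8 in replicate 1 and 24.2, 24.7 and 24.0 in replicate 2. Within each library they lay close together. Peaks between genes pointing toward each other were lowest in both libraries, and the order of the other arrangements changed.

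Intergenic peaks with more motifs in their interval had higher medians up to 3 motifs. Replicate 1 medians were 18.8 with 0 motifs, 49.9 with 1, 81.5 with 2 and 111 with 3, and 69.3 in the 27 peaks with 4 or more. Peak width moved with these counts, from a median of 528 bp with 0 motifs to 1236 bp with 3, and its part in the relation was not tested.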
